A study of Saccharomyces cerevisiae W303 with 24 samples.

Results

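The histone genes of budding yeast were followed in haploid strains that carry 1 extra chromosome. The genes were the 8 that encode the core histones, HTA1 and HTA2 for H2A, HTB1 and HTB2 for H2B, HHT1 and HHT2 for H3, HHF1 and HHF2 for H4, together with HTZ1 for the variant H2A.Z and HHO1 for the linker histone H1. These 10 genes were found by name or open reading frame among the 6176 nuclear open reading frames on the arrays, and all 10 were measured. The genes were chosen by their values in the strain that duplicates them and in the other strains, as earlier results of these data had shown them, so these values are given as a description and without a test.

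The strains were 12 disomes-ubp6Δ, which lack the deubiquitinating enzyme UBP6 and carry an extra copy of any 1 chromosome other than III, IV, VI and VII, and the 12 disomes with the same extra chromosomes and UBP6 intact. All were derivatives of the laboratory strain W303, grown in the rich medium YEPD, and the RNA of each strain was set against that of a reference, labelled as wild-type, on a single two-colour array. The spread given here is between different disomes of a genotype. Bulk RNA cannot tell fewer cells in S phase from less histone mRNA per cell.

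Histones package DNA into nucleosomes, each with a core of H2A, H2B, H3 and H4. In yeast the core genes form divergently transcribed pairs that share a promoter region, HTA1-HTB1, HTA2-HTB2, HHT1-HHF1 and HHT2-HHF2, and they are transcribed mainly in S phase. The HIR complex, ASF1 and RTT106 hold 3 of the pairs down outside S phase. SPT10 and SPT21 activate histone genes, and surplus histone protein is degraded with the help of the checkpoint kinase RAD53. The HTA1-HTB1 pair is known to lower its output when surplus H2A and H2B accumulate.

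The chromosomes decide which strains hold extra copies. HTA2, HTB2, HHT1 and HHF1 lie on chromosome II, HHT2 and HHF2 on XIV, HTZ1 on XV and HHO1 on XVI, so 8 of the 10 genes are duplicated in 1 strain of each genotype. HTA1 and HTB1 lie on IV, which no strain of the series duplicates. In 8 strains (I, V, VIII, IX, X, XI, XII and XIII) no histone gene is duplicated.

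All values are log2 strain over reference, on which a transcript proportional to copy number would give 1 in its own disome. In the labelled direction the duplicated chromosome averaged -0.98 to -0.59 in the 12 disomes-ubp6Δ, and the sign of these arrays was turned. After turning, the duplicated chromosome was the highest on 24 of 24 arrays. The UBP6 signal was 24.2 to 268 in the disomes-ubp6Δ and 12.9 to 65.1 in their reference, against 1235 to 3924 in the disomes and 1842 to 4474 in theirs. The reference of the disomes-ubp6Δ thus had little UBP6 signal and went against its wild-type label. After turning, the strain was in Cy3 for the disomes-ubp6Δ and in Cy5 for the disomes, so a dye preference of a probe cannot be told apart from the genotype. It cancels in the mean of both genotypes and in a difference between strains of 1 genotype.

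The histone probes were bright apart from that of HHO1. Its median reference signal was 1747, against medians of 11214 (HTZ1) to 61749 (HHF1) for the others. Of 240 gene and array values 5 were missing, all from outlier spots: HHF1 in disomes X, XI and XII, and HTB1 and HTZ1 in disome XII. No spot of the 10 genes was saturated and none was below background. Both spots of a probe differed by a median of 0.04 and at most 0.40. In disome VIII, HTB2 rested on 1 spot with a reference signal of 333, against a median of 14307 over the arrays. The paired gene copies encode identical or nearly identical proteins and their coding sequences are alike, so their probes may share signal, and the probe sequences were not used here.

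**Figure D1:**
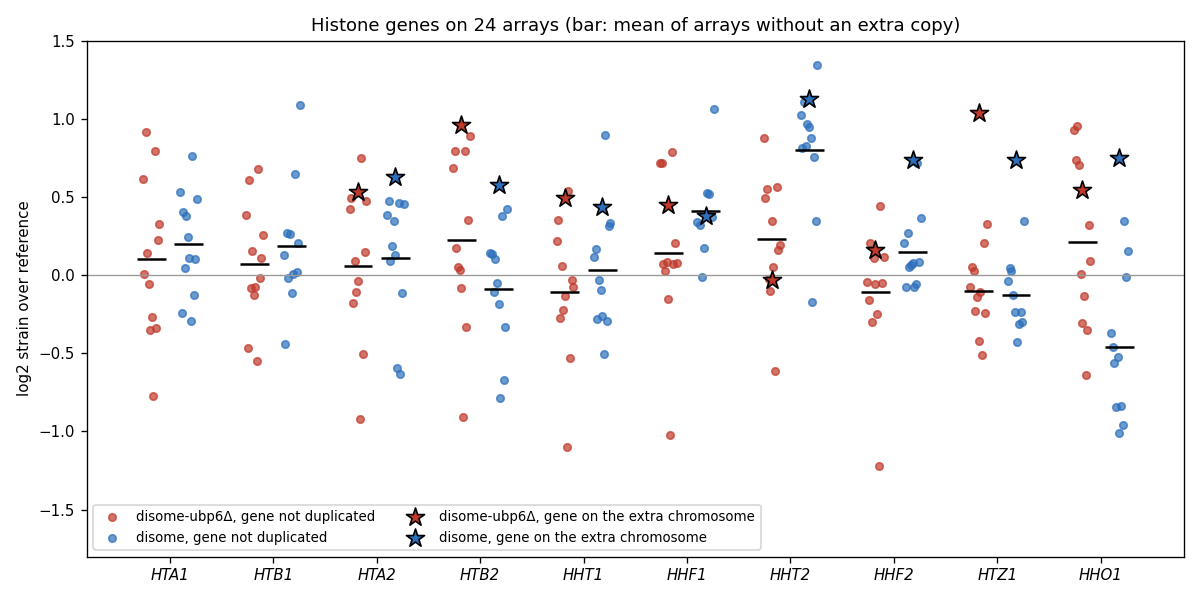
Log2 strain over reference (vertical axis) of the 10 histone genes on 24 arrays, disomes-ubp6Δ in red left of disomes in blue. Stars mark the strain with the gene on its extra chromosome and bars the mean of the other strains. Among the stars, only those of HTB2 and HTZ1 stand above all other strains in both genotypes.

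With an extra copy, the core histone genes showed less than the response of a typical duplicated gene, while HTZ1 showed a full one. The response was taken as the value in the own disome minus the mean of the other strains of the same genotype. Its median over the 8 duplicated histone genes was 0.50 (range 0.03 to 1.00) in the mean of both genotypes, 0.41 in the disomes-ubp6Δ and 0.55 in the disomes. Over all 4134 duplicated genes the mean was 0.88 ± 0.44 (SD) and the median 0.91, and 13.0% were under 0.5. The own disome stood above all other strains in both genotypes for 2 of 8 histone genes, HTB2 and HTZ1. The share was 65.2% of all duplicated genes. In the disomes-ubp6Δ alone it was 2 of 8 (75.4% of all duplicated genes) and in the disomes 5 of 8 (76.7%).

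HTA2 and HTB2, the second H2A-H2B pair, had intermediate responses. HTA2 was at 0.53 in the disome II-ubp6Δ, against a lowest value of -0.92, a median of 0.09 and a highest of 0.75 in the other 11. It was at 0.63 in disome II, against -0.63, 0.19 and 0.48 in the other 11 disomes. Disome II was thus the highest disome for HTA2, whereas 1 disome-ubp6Δ lay above its own. The mean response was 0.50, a 1.41-fold level, and 12.8% of all duplicated genes were lower.

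HTB2 was at 0.96 in the disome II-ubp6Δ, against -0.91, 0.17 and 0.89 as the lowest, median and highest of the others. It was at 0.57 in disome II, against -0.79, -0.05 and 0.43. Disome II was the highest in both genotypes, by a small margin over disome XVI. The mean response of 0.70 was the highest of the 6 duplicated core genes, and 26.2% of all duplicated genes were lower.

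HHT1 and HHF1, the H3-H4 pair of the same chromosome, responded unequally. HHT1 was at 0.49 in the disome II-ubp6Δ, against -1.10, -0.08 and 0.54 in the others, and at 0.43 in disome II, against -0.50, -0.03 and 0.90. In each genotype 1 other strain, that with an extra chromosome XIII, was higher. HHF1 was at 0.45 in the disome II-ubp6Δ, against -1.02, 0.08 and 0.79, and at 0.38 in disome II, against -0.01, 0.36 and 1.06 in the 8 other disomes that measured it. For HHF1 3 other strains of each genotype lay above the own disome. The mean responses were 0.50 for HHT1 and 0.14 for HHF1, with 13.0% and 4.40% of all duplicated genes lower.

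HHT2 and HHF2, the H3-H4 pair on chromosome XIV, differed between the genotypes. HHT2 was at -0.03 in the disome XIV-ubp6Δ, against -0.61, 0.19 and 0.88 in the others, where 9 of 11 strains were higher. It was at 1.13 in disome XIV, against -0.17, 0.87 and 1.34 in the other disomes. The response was -0.26 in the disome-ubp6Δ and 0.32 in the disome, and its mean of 0.03 was the lowest of the 8 genes. HHF2 was at 0.16 in the disome XIV-ubp6Δ, against -1.22, -0.05 and 0.44, and at 0.73 in disome XIV, against -0.08, 0.08 and 0.72. Its mean response was 0.43, and 10.5% of all duplicated genes were lower. On the disome XIV-ubp6Δ array the whole extra chromosome was dim, with a mean of 0.59, against 0.86 to 0.98 on the other 11 arrays of that genotype. The median response of chromosome XIV genes was 0.56 in the disome-ubp6Δ and 0.94 in the disome, and the part of this array in the HHT2 and HHF2 responses was not tested.

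HTZ1 stood higher than the core genes in both genotypes. HHO1, with a mean response of 0.77, did so in the disome but not in the disome-ubp6Δ. HTZ1, whose H2A.Z is placed next to promoters by the SWR1 complex, was at 1.04 in the disome XV-ubp6Δ, against -0.51, -0.11 and 0.33 in the others. It was at 0.74 in disome XV, against -0.43, -0.18 and 0.34. The groups did not overlap, and the mean response of 1.00, a 2.00-fold level, exceeded 62.4% of all duplicated genes.

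HHO1 was at 0.55 in the disome XVI-ubp6Δ, against -0.64, 0.09 and 0.96 in the others, and at 0.75 in disome XVI, against -1.01, -0.52 and 0.35. The response was 0.34 in the disome-ubp6Δ, where 4 of 11 strains were higher, and 1.21 in the disome, where none was. HHO1 varied with the slide that carried the arrays (below 0 on 8 of 8 disomes of slide 1, above 0 on all 4 disomes-ubp6Δ of slide 3), and disome XVI was the only disome on its slide. Within slide 4 the disome XVI-ubp6Δ exceeded the mean of the other 7 by 0.69, and the highest of the 7 was at 0.32.

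**Figure D2:**
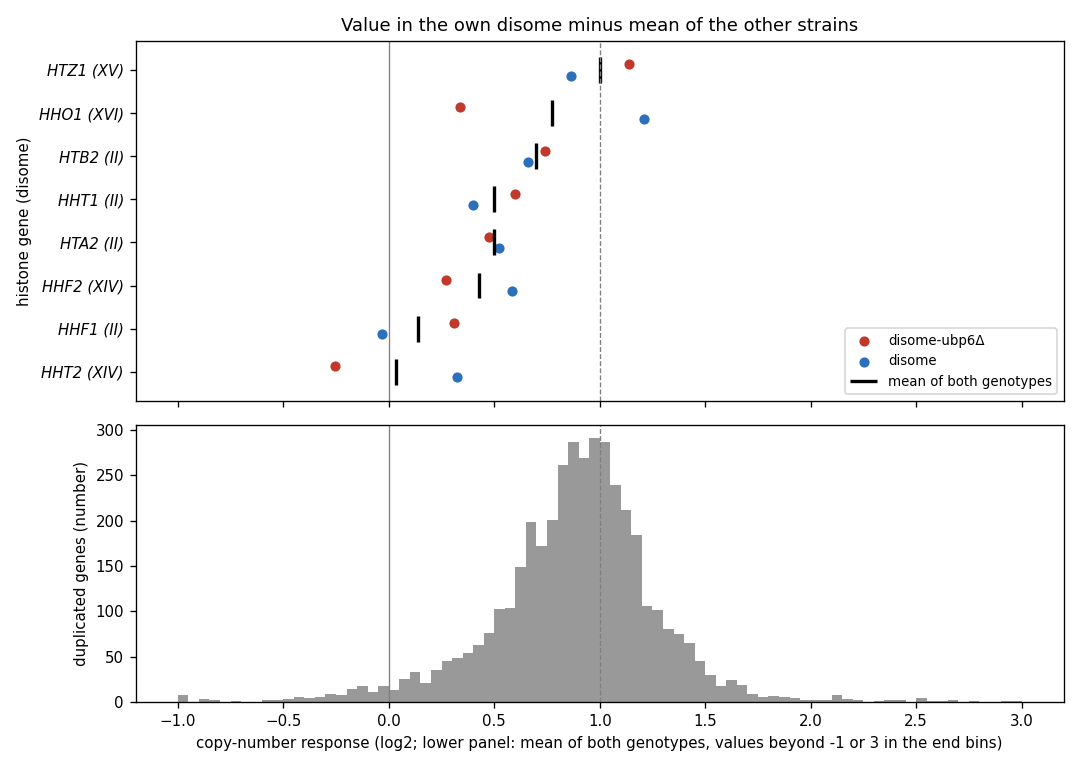
Copy-number response in log2 (horizontal axis). Upper panel, the 8 duplicated histone genes with disomes-ubp6Δ in red, disomes in blue and their mean as a bar. Lower panel, number of genes at each response over all 4134 duplicated genes, in bins of 0.05. The 6 core genes lie between 0.03 and 0.70, left of the bulk around 0.91, and HTZ1 lies at 1.00. The dashed line marks a response proportional to copy number.

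Genes next to the histone loci were mostly near the genome-wide level. The 4 nearest measured genes averaged 0.90 around HTA2-HTB2 (0.68 to 1.14), 0.91 around HHT1-HHF1 (0.68 to 1.17), 0.83 around HHT2-HHF2 (0.49 to 1.10) and 1.12 around HHO1 (1.04 to 1.21). ECM15 and NTH2 beside HTA2-HTB2 were at 0.96 and 1.14, and KTR5 beside HHT2-HHF2 at 1.10. CRZ1, on the same side, was at 0.49, with 0.08 in the disome-ubp6Δ and 0.91 in the disome. The genes around HTZ1 averaged 0.40, with YOL013W-B at -0.90, RCL1 at 0.46, HRD1 at 0.96 and PLB3 at 1.06. RCL1 was at 0.92 in the disome-ubp6Δ and 0.0002 in the disome. Both core genes on each side of a shared promoter region thus had lower responses than most of their measured neighbours, with HTB2 above only PDR3 (0.68) among the 4 beside it.

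In the strains that duplicate core histone genes, the other core histones averaged below their genotype mean. On the disome II arrays the core genes outside chromosome II lay 0.10 below their genotype mean in the disome-ubp6Δ and 0.32 below it in the disome. The value of the disome II-ubp6Δ was no lower than those with chromosomes VIII, X and XI, which duplicate no histone gene (0.14, 0.13 and 0.19 below in the disomes-ubp6Δ). On the disome XIV arrays the core genes elsewhere lay 0.36 and 0.34 below. Taken relative to these genes of the same array, the mean responses were 0.71 for HTA2, 0.91 for HTB2, 0.71 for HHT1, 0.35 for HHF1, 0.38 for HHT2 and 0.78 for HHF2. With arrays of the same slide alone as the others, the responses were 0.39 for HTA2, 0.54 for HTB2, 0.48 for HHT1, 0.06 for HHF1, 0.23 for HHT2, 0.31 for HHF2 and 1.09 for HTZ1. The others were then only 3 strains for the disome II-ubp6Δ and 2 each for disomes XIV and XV.

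The level of the 2 copies of a histone could also be set against each other on the same array, which removes what both copies share. HTA1 minus HTA2 was -0.52 in the disome II-ubp6Δ, against -0.24, 0.07 and 0.42 as the lowest, median and highest of the other 11. It was -0.87 in disome II, against -0.10, 0.15 and 0.51. HTB1 minus HTB2 was -1.43 in the disome II-ubp6Δ, against -0.63, -0.16 and 0.36, and -1.01 in disome II, against -0.06, 0.17 and 0.68 in the 10 others that measured both. In both genotypes disome II lay below every other strain for both contrasts, and the mean shifts of both genotypes were -0.79 for H2A and -1.30 for H2B. HTA2 and HTB2 are duplicated there, so a response to copy number by itself lowers both contrasts. By their own values 65.2% of all duplicated genes stood above all other strains in both genotypes. The contrasts restate the single-gene values and are not a separate result.

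For H3 and H4 the contrasts moved less. HHT1 minus HHT2 was shifted by 0.31 in disome II, where HHT1 is duplicated, and by -0.46 in disome XIV, where HHT2 is, in the mean of both genotypes. HHF1 minus HHF2 was shifted by 0.33 in disome II and by -0.35 in disome XIV. All 8 values of the 2 strains and 2 genotypes ran in the direction of the extra copy, but those of disome II lay within the range of the 10 other strains (7 for HHF1 minus HHF2 in the disomes) for both contrasts in both genotypes. Of disome XIV, HHF1 minus HHF2 was below all other strains in both genotypes (-0.09, against a lowest value of -0.08, in the disome-ubp6Δ, and -0.21, against -0.20, in the disome), and HHT1 minus HHT2 was below them in the disome alone.

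**Figure D3:**
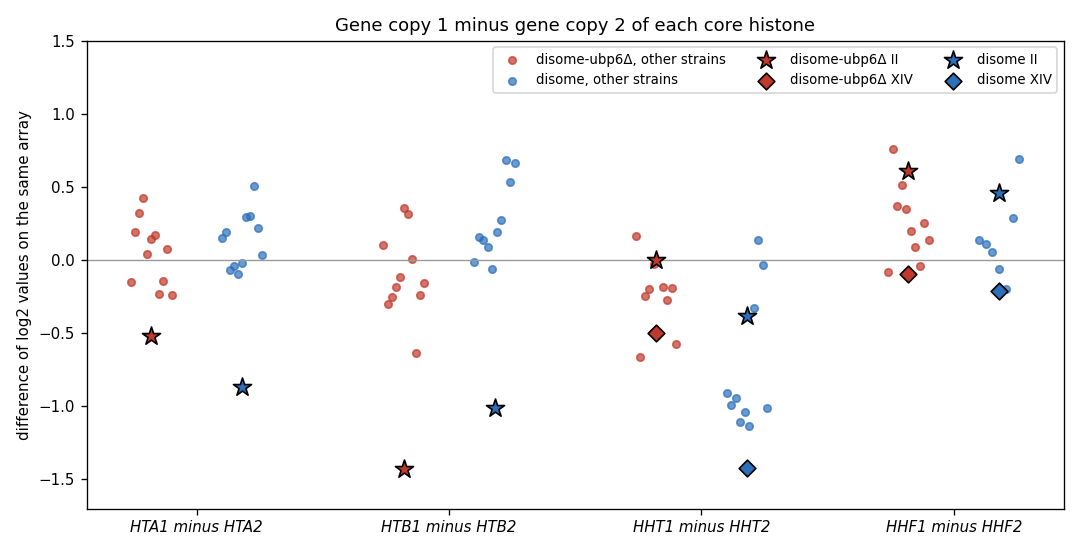
Difference between the log2 values of the first and second gene copy of each core histone on the same array (vertical axis), disomes-ubp6Δ in red left of disomes in blue. Stars mark disome II, which duplicates HTA2, HTB2, HHT1 and HHF1, and diamonds disome XIV, which duplicates HHT2 and HHF2. For H2A and H2B disome II lies below all other strains in both genotypes.

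The copies elsewhere were set against the 8 strains with no duplicated histone gene. In disome II, HTB1 on chromosome IV lay below the mean of these strains in both genotypes and its neighbour HTA1 less so. HTB1 was at -0.47 in the disome II-ubp6Δ, against a lowest value of -0.55, a median of 0.04 and a highest of 0.68 in the 8 strains. It was at -0.44 in disome II, against -0.11, 0.13 and 0.65, and so lay below all 7 disomes that measured it. The mean difference of both genotypes was -0.60, a 0.660-fold level. HTA1 was at 0.01 in the disome II-ubp6Δ, against -0.77, 0.04 and 0.91, and at -0.24 in disome II, against -0.29, 0.31 and 0.76. Its values lay within the range of the 8 strains in both genotypes, and its mean difference was -0.31. Over both genes the mean was -0.35 in the disome-ubp6Δ and -0.56 in the disome, and -0.57 in the mean of both genotypes when only strains of the same slide were used. For the disome II-ubp6Δ the same-slide strains were only 3, those with chromosomes I, V and VIII. Their core histone levels were 0.48, 0.58 and -0.06.

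The H3 and H4 copies on chromosome XIV showed no such difference in disome II. HHT2 differed by 0.16 and HHF2 by -0.13 in the mean of both genotypes. HHF2 was at -0.16 in the disome II-ubp6Δ, against -1.22, -0.05 and 0.44, and at -0.078 in disome II, just below the -0.077 of the lowest of the 8 disomes. HTZ1 was at 0.05 in disome II, above the 0.02 of the highest of the 7 disomes that measured it, and was the 1 of 6 genes above all strains there (7.58% of all genes outside chromosome II), with none in the disome-ubp6Δ (7.96%). Of the 6 histone genes outside chromosome II, 0 lay below all 8 strains in the disome-ubp6Δ, where 6.89% of all genes outside that chromosome did. In the disome 2 of 6 did, HTB1 and HHF2, where 7.00% of all such genes did. Below all strains in both genotypes were 0.967% of such genes and none of the 6.

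In disome XIV, which has extra H3 and H4 genes, HTA2 and HTB2 had the lowest mean differences from the 8 strains among the core genes elsewhere. HTA2 was at -0.51 in the disome XIV-ubp6Δ, against -0.92, 0.03 and 0.75 in the 8 strains, and at -0.63 in disome XIV, against -0.59, 0.26 and 0.48. HTB2 was at -0.33 in the disome XIV-ubp6Δ, against -0.91, 0.11 and 0.80, and at -0.67 in disome XIV, against -0.79, 0.03 and 0.37. Of the 8 histone genes outside chromosome XIV none lay below all 8 strains in the disome-ubp6Δ, where 9.41% of all such genes did. Only HTA2 did in the disome, where 14.1% of all such genes did. In both genotypes it was 2.94% of such genes and none of the 8. The mean differences of both genotypes were -0.69 for HTA2, -0.57 for HTB2, -0.43 for HTA1 and -0.15 for HTB1, and -0.38 for HHT1 and 0.08 for HHF1. The 4 H2A and H2B genes averaged -0.42 in the disome-ubp6Δ and -0.50 in the disome. The same-slide value for the disome rests on 1 strain, disome XIII, which had a high histone level.

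Disomes XV and XVI duplicate no core histone gene. In disome XV the 8 core genes differed from the 8 strains by -0.25 (HHT2) to 0.18 (HHT1) in the mean of both genotypes. In disome XVI all 8 core genes and HTZ1 were above the mean of the 8 strains by the mean of both genotypes, by 0.16 (HHT1) to 0.58 (HTB2). In the disome XVI-ubp6Δ alone HHT1, HHF1 and HHT2 differed by -0.01, -0.07 and -0.01. Above all 8 strains were 2 of 9 in the disome-ubp6Δ, HTB2 and HTZ1, where 10.3% of all genes were. In the disome it was 5 of 9 (HTB1, HTB2, HHF1, HHT2 and HTZ1), where 16.3% of all genes were. Disome XVI shared its slide with no other disome, and the part of the slide was not tested.

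The core histone level varied from disome to disome, with a like order in both genotypes. The mean of the core genes outside the extra chromosome was lowest with chromosome XII, -0.89 ± 0.23 in the disome XII-ubp6Δ (SD over 8 genes) and -0.40 ± 0.28 in disome XII (6 genes). There the 8 and the 6 genes were all below 0. It was high with chromosome XIII, 0.67 ± 0.14 in the disome-ubp6Δ and 0.64 ± 0.18 in the disome (8 genes each), and all 8 genes were above 0 on both arrays. Disome XVI had the highest value of all, 0.69 ± 0.40, against 0.28 ± 0.30 in its ubp6Δ derivative. Chromosome V gave 0.58 and 0.39, and chromosome I 0.48 and 0.36, in the disome-ubp6Δ and the disome. The other arrays lay between -0.27 and 0.26. Ordered by level, neighbouring arrays differed by less than the SD over their genes, except that the disome XII-ubp6Δ lay further below disome XII, the next array.

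The order of the strains was much alike in the genotypes. Over the 12 disomes the level in the disomes-ubp6Δ and in the disomes had a Pearson r of 0.87 and a Spearman rho of 0.88. Without XII and XVI r was 0.88. These are given as a description, since both strains of a pair carry the same extra chromosome and with chromosomes X, XI and XII the genotypes average different sets of genes. The single genes moved with this level. HTA2 and HTB2 had a correlation of 0.95 over 22 arrays, with each value taken from its genotype mean, HTA1 and HTB1 of 0.79 over 23, HHT1 and HHF1 of 0.77 over 19, and HHT2 and HHF2 of 0.56 over 22. The 4 divergent pairs had a median of 0.78 and the 24 other pairs of core genes 0.81, and HTA2 with HTB2 was the highest of all. With HTZ1 or HHO1 the median was 0.54.

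**Figure D4:**
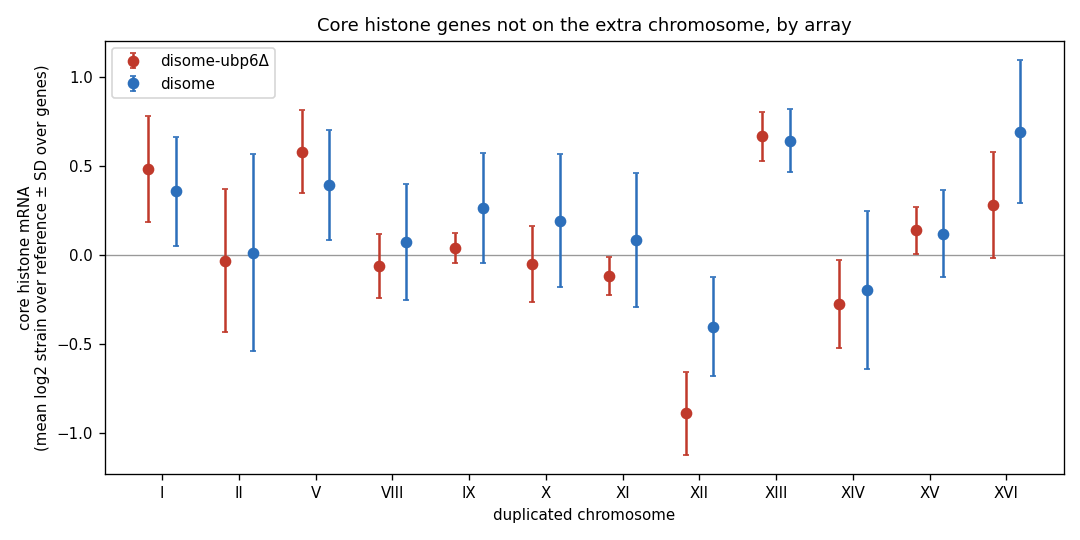
Mean log2 strain over reference of the core histone genes outside the extra chromosome (vertical axis) for each duplicated chromosome, disomes-ubp6Δ in red left of disomes in blue, with SD over 4 to 8 genes. Chromosome XII gives the lowest values, -0.89 and -0.40, and chromosome XIII values of 0.67 and 0.64 in the disome-ubp6Δ and the disome.

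Other genes followed or opposed the core level across the 24 arrays. Among 5297 genes on at least 20 arrays, the most alike were GRX4, a glutaredoxin of iron regulation (r = 0.85), MRP49 and MNP1, mitochondrial ribosomal proteins (0.84 and 0.81), TAT1, an amino acid permease (0.83), and AIM34 (0.81). The most opposite were AAC3, an ADP/ATP carrier of the mitochondrion (-0.88), SOG2 of the RAM network (-0.86), the malic enzyme MAE1 (-0.82), RIB5 of riboflavin synthesis (-0.82) and ARO4 of aromatic amino acid synthesis (-0.81). HTZ1 had 0.63 and HHO1 0.44. Without the disome XII strains the correlations were 0.69 for GRX4 and -0.84 for AAC3, so the first in particular rested partly on them. The points share slides and strains, and the values are given as a description.

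The rule did not use the difference between the genotypes, which could therefore be tested. It is a difference of ratios, each taken to the reference of its own genotype. Paired by extra chromosome and without the own disome, 3 of 10 histone genes passed the test, HTB2 and HHO1 higher and HHT2 lower in the disomes-ubp6Δ, and 34.2% of all 5771 genes passed (16.2% higher and 18.0% lower). HHT2 averaged 0.23 ± 0.41 in the disomes-ubp6Δ and 0.80 ± 0.41 in the disomes (SD, n = 11 each), a difference of -0.58 (SE 0.11, adjusted p = 0.00139), with 0 of 11 pairs higher. HHT1, the other H3 gene, differed by -0.14 (adjusted p = 0.21, 5 of 11 pairs higher).

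HHO1 averaged 0.21 ± 0.56 in the disomes-ubp6Δ and -0.46 ± 0.46 in the disomes (SD, n = 11 each), a difference of 0.67 (SE 0.19, adjusted p = 0.0143), with 9 of 11 pairs higher. HTB2 averaged 0.22 ± 0.55 in the disomes-ubp6Δ and -0.09 ± 0.39 in the disomes, a difference of 0.31 (SE 0.09, adjusted p = 0.0167), also in 9 of 11 pairs. HHF2 differed by -0.26 (adjusted p = 0.0545, 1 of 11 pairs higher), and the other 6 genes had adjusted p-values of 0.21 to 0.72. The genotype, the dye orientation, the slide and the reference, which differed in UBP6 signal, cannot be told apart here. Slides 1 and 2 held only disomes and slide 4 only disomes-ubp6Δ. No pair had both of its arrays on the same slide.

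The slide moved with HHO1, which averaged 0.83 in the 4 disomes-ubp6Δ of slide 3 and -0.15 in the 7 of slide 4, against -0.70 in the 8 disomes of slide 1 and 0.16 in the 3 of slide 2. The reference signal of HHO1 was only 661 to 790 in the 4 disomes-ubp6Δ of slide 3. It was 2174 to 5048 in the 8 disomes of slide 1. With the pair of slides as a random block the adjusted p was 0.0195 for HHT2, 0.0724 for HHO1 and 0.0567 for HTB2, and so of the 3 calls only HHT2's was kept. This block cannot remove a slide difference that runs with the genotype. Without pairing by extra chromosome HTB2's adjusted p was 0.253.

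**Figure D5:**
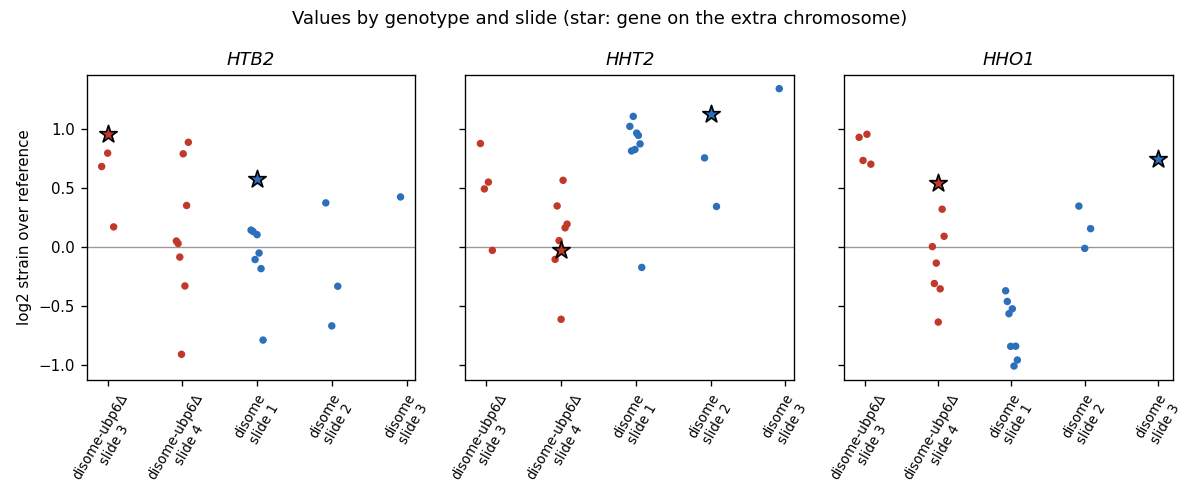
Log2 strain over reference (vertical axis) of HTB2, HHT2 and HHO1 by genotype and slide, disomes-ubp6Δ in red left of disomes in blue; stars mark the strain that duplicates the gene. HHO1 lies above 0.70 on slide 3 of the disomes-ubp6Δ and between -1.01 and -0.37 on slide 1 of the disomes. HHT2 lies above 0.75 on 7 of 8 disomes of slide 1.

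Genes that regulate histone transcription were tested against the reference in the mean of both genotypes, over strains and without the own disome. Of 11 tested regulators 1 rose and 6 fell, against 13.9% and 24.2% of all genes. Their median was -0.15, against -0.05 over all genes. RTT106, a histone chaperone that acts in the repression of histone genes, fell by 0.57 (SE 0.08, adjusted p = 0.000439), in 10 of 11 pairs. SPT21, an activator, fell by 0.31 in 11 of 11 pairs (SE 0.05), and MBP1, the DNA-binding part of the G1/S factor MBF, by 0.20 in 12 of 12. ASF1, an H3-H4 chaperone, rose by 0.31 in 10 of 11 pairs, a call lost with the slide block (adjusted p = 0.0695). The subunits HIR1 and HIR2 of the repressor fell by 0.15 and 0.17, and both calls were lost with the slide block (adjusted p = 0.105 and 0.0819) and with values centred on the non-duplicated genes (0.106 and 0.063). HIR3 and HPC2, the other subunits of the repressor, did not pass (-0.08 and 0.03, adjusted p = 0.244 and 0.758). HIR1 averaged -0.03 in the disomes-ubp6Δ and -0.28 in the disomes, and HPC2 -0.23 and 0.28. With the centred values 1 regulator rose and 3 fell, against 18.6% and 16.9% of all genes. With the slide block 0 rose and 3 fell, against 7.75% and 13.9%. SPT10 was not tested.

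Of 7 genes of histone turnover none rose and 3 fell, against the 13.9% and 24.2% of all genes, with a median of -0.09. RAD53, the checkpoint kinase that also promotes degradation of surplus histones, fell by 0.44 (SE 0.05, adjusted p = 0.00017) in 11 of 11 pairs. TRF5 and PAP2, the poly(A) polymerases of the TRAMP complexes, fell by 0.30 and 0.18. All 3 calls were kept with the slide block, where 13.9% of all genes fell. With the centred values 3 of 7 fell, against 16.9% of all genes. PAP2 averaged 0.02 in the disomes-ubp6Δ and -0.37 in the disomes, so its fall came from the disomes.

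Of 13 histone chaperones and importers 6 fell and none rose (24.2% and 13.9% of all genes), with a median of -0.13. The karyopherin KAP123, which imports H3 and H4, fell by 0.24, the chaperone VPS75 by 0.23 and HIF1, a partner of the histone acetyltransferase HAT1, by 0.19. With the slide block 1 of 13 fell, HIF1 (adjusted p = 0.0387), against 13.9% of all genes. With the centred values 2 of 13 fell, without KAP123 (adjusted p = 0.0817), against 16.9% of all genes.

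Of 11 tested genes of the SWR1 and INO80 remodellers and the centromeric histone, 7 fell and none rose (24.2% and 13.9% of all genes), with a median of -0.17. BDF1, a bromodomain protein of SWR1, fell by 0.36 and ARP6, an SWR1 subunit, by 0.27, both in 11 of 11 pairs. CSE4, the H3 variant of the centromere, fell by 0.27, a call lost with the slide block (adjusted p = 0.109) and with centring. With the slide block 4 fell (13.9% of all genes) and with the centred values 5 (16.9%). SWC7 was not tested.

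Of 19 tested genes of histone acetylation and deacetylation, 2 rose and 8 fell (13.9% and 24.2% of all genes), with a median of -0.10. SAS2, an H4 acetyltransferase, fell by 0.44, the deacetylase SIR2 by 0.35 and RTT109, which acetylates new H3, by 0.32. None of the 3 was above 0 in any pair. ADA2 of the SAGA complex rose by 0.37 and EPL1 of NuA4 by 0.33, and ADA2's call was lost with the slide block (adjusted p = 0.069). EPL1 averaged 0.55 in the disomes-ubp6Δ and 0.12 in the disomes, and ADA2 0.15 and 0.59. With the slide block 1 rose and 5 fell (7.75% and 13.9% of all genes), and with centring 2 and 6 (18.6% and 16.9%).

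Among 12 genes of histone methylation and ubiquitination, 1 rose and 3 fell, near the 13.9% and 24.2% of all genes, with a median of -0.05, the same as over all genes. GIS1, a JmjC protein, rose by 0.20, and the demethylase JHD1 and the H3 methyltransferase SET1 fell by 0.17 each. These 3 calls were lost with the slide block (adjusted p = 0.0921, 0.0778 and 0.0553), under which none of the 12 passed (7.75% of all genes higher and 13.9% lower). Those of JHD1 and SET1 were also lost with centring (0.0705 and 0.0897). With the centred values 1 of 12 rose and none fell, against 18.6% and 16.9% of all genes. JHD1 averaged -0.34 in the disomes-ubp6Δ and -0.0002 in the disomes.

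Cell cycle genes were included because histone transcription follows S phase. Of 27 genes of the G1/S transition and replication 1 rose and 10 fell (13.9% and 24.2% of all genes), with a median of -0.13. MCM5 of the replicative helicase fell by 0.34, POL2 of the DNA polymerase epsilon by 0.29 and CDC21, the thymidylate synthase, by 0.28, each in 10 or 11 of 11 pairs. PRI2 of the primase rose by 0.13, which was lost with the slide block (adjusted p = 0.0896). Of 11 genes of G2/M and M/G1 1 rose and 4 fell (13.9% and 24.2% of all genes), with a median of -0.06. BUD4, ASH1 and the polo kinase CDC5 fell by 0.28, 0.22 and 0.19, and SWI5 rose by 0.24. With the slide block 6 of 27 and 1 of 11 fell (13.9% of all genes) and none rose (7.75%), and the calls of ASH1, CDC5 and SWI5 were lost (adjusted p = 0.107, 0.0776 and 0.121). Those of ASH1 and CDC5 were also lost with centring (0.0694 and 0.0649). With the centred values 2 of 27 rose and 8 fell, and 2 of 11 rose and 1 fell, against 18.6% and 16.9% of all genes. ASH1 averaged -0.47 in the disomes-ubp6Δ and 0.03 in the disomes, and SWI5 0.48 and 0.002. The part of the cell cycle genes in the core histone level was not tested.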

How the data were processed

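RNA of 12 disomes-ubp6Δ and 12 disomes was hybridised with a reference RNA to two-colour Agilent arrays, 1 per strain. The authors read the images with Feature Extraction 10.7 at default settings. The deposited intensity columns are of both kinds: raw medians of spot and background, and processed signals, background-subtracted and dye-normalized by that software. The log10 ratios deposited by the authors set processed Cy5 over Cy3 for each spot. The deposited flags mark outlier, saturated and dim spots. The authors' table of 1 value per probe followed the turned log2 ratios of strain over reference (r 0.976 to 1.00), so it was taken as log2.

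Log2 of the processed signals was taken per spot. Controls, outliers and spots with neither dye well above background were dropped, and spots were averaged by probe and gene. The sign was turned on the disomes-ubp6Δ. Between 5288 and 6132 genes were measured per array, the median Cy3 signal was 715 to 2342, and the number of arrays limits the precision. Open reading frames follow the files (array design on sacCer2), and names and neighbours the R64 table, in which 5718 of 6176 were found. Single genes were tested with limma 3.58.1 in R 4.3.3 against 0 over strains, without values of the own chromosome, on a minimum of 6 strains or pairs, with Benjamini-Hochberg adjusted p under 0.05. The p-values measure the spread between strains. The fits were tested on simulated data with known changes. Of changes of 0.5, 69% to 91% were recovered, and of changes of 1, 95% to 99%. The simulated noise was independent between arrays, so an effect of the slides was not tested.

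A disome and its ubp6Δ derivative carry the same extra chromosome and were paired: deviations from the genotype mean correlated at -0.05 to 0.64 in the same disome (median 0.32, over 0.1 in 11 of 12). Named list genes were up to 3 highest and 3 lowest past the test, changed alike in 75% of pairs, likeness genes were the 5 highest and 5 lowest r, and neighbours the 2 nearest measured genes on each side. HIR1 and HIR2 were named after their values were seen. HIR3 and HPC2 were added later and are left out of the counts and alternatives given for named genes. 1 gene of the cell cycle lists is not reported here. Members and lists were chosen with earlier results of these data known. Alternatives were no background filter, outliers kept, the software's log ratio, normexp (offset 50) with loess, centring, the authors' table, own-chromosome values kept, slide as a random block, and strains left out. Slide pairs as a block, same-slide values, values relative to other core genes and values without XII were added after seeing the data.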

Additional observations from a re-analysis of the deposited data

Results flagged for a closer look

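The effect against the reference differed between the genotypes, by the paired limma test of the difference (disomes-ubp6Δ minus disomes, log2), for 3 histone genes and 12 of the other named genes. HTB2 differed by 0.308 (adjusted p = 0.0167), HHT2 by -0.575 (0.00139) and HHO1 by 0.671 (0.0143). With the pair of slides as a random block HHT2's call was kept (0.0195) and those of HTB2 and HHO1 were lost (0.0567 and 0.0724). Among the regulators HIR1 differed by 0.249 (adjusted p = 0.0307). In the histone turnover group PAP2 differed by 0.392 (adjusted p = 0.000793), and the centromeric CSE4 by -0.36 (0.0214). Among genes of histone modification, ADA2 differed by -0.434 (0.0162), SIR2 by 0.347 (0.00673), JHD1 by -0.345 (0.0018) and SET1 by -0.184 (0.0336). Among cell cycle genes, POL2 differed by -0.272 (0.00579), SWI5 by 0.479 (0.0398), BUD4 by 0.235 (0.0298), ASH1 by -0.506 (0.00388) and CDC5 by -0.238 (0.0368). With the slide block PAP2 (adjusted p = 0.0134), JHD1 (0.0379) and ASH1 (0.0274) passed. The calls of HIR1, CSE4, ADA2, SIR2, SET1, POL2, SWI5, BUD4 and CDC5 were lost (0.07 to 0.252). Of all genes 34.2% passed this test. The dye orientation, the slide and the reference, which differed in UBP6 signal, cannot be told apart from the genotype.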

How the results depend on the processing

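The median copy-number response of the 8 histone genes was 0.42 to 0.50 under 8 alternatives, against 0.50. That of the 6 core genes relative to the other core genes of the array was 0.71, against 0.46. Without the disome XII strains HHT2's response was -0.06, against 0.03, and HHF1's 0.08, against 0.14. HHF1's was 0.21 with outlier spots kept and with the authors' table. The mean differences of HTA1 and HTB1 in disome II (-0.57 to -0.42) and of the H2A and H2B genes in disome XIV (-0.58 to -0.44) kept their sign in 8 of 8 alternatives each. No background filter and the software's log ratio left the histone median and both differences unchanged, so these alternatives were no check on them. Counts of all genes called moved by over 1.5 times with own-chromosome values kept, to 1366 of the disomes-ubp6Δ (against 2106), 1528 of the disomes (against 2303) and 1058 in the mean of both genotypes (against 2196). With the slide as a random block they were 579 in the disomes-ubp6Δ and 334 in the disomes, and with the pair of slides 1248 in the mean and 737 in the difference (against 1974). The 4 disomes of later slides gave 4 calls (limma, at least 3 strains), with 1243 genes at an unadjusted p under 0.05. Leaving out 1 disome at a time gave 1850 to 2177 calls in the disomes-ubp6Δ and 1936 to 2497 in the disomes. Centring moved the split of higher and lower calls in the mean of both genotypes to 1074 and 977, against 802 and 1394. In the disomes-ubp6Δ it was 1049 and 922, against 832 and 1274, and in the disomes 1113 and 1135, against 864 and 1439. Without the replicate block the difference had 1458 calls, and HTB2's call was the one lost among the histone genes. HHF2's difference passed with normexp and loess (adjusted p = 0.0452) and with own-chromosome values kept (0.0284). Over the named genes of the lists, 201 gene and alternative pairs kept the call and 47 lost it. No named result changed sign between alternatives apart from HHT2's response.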
